A study of Mus musculus with 5 samples.

Results

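The cytosolic ribosomal protein genes were measured in mouse hair follicle stem cells in which Polycomb repressive complex 1 (PRC1) was or was not disrupted. They were taken as the protein-coding genes named Rpl or Rps followed by a digit, together with Rplp0, Rplp1, Rplp2 and Rpsa, without the Rps6k kinases and without names that contain -ps. The rule gave 83 genes of the 30840 features in the table, and all 83 passed the filter on low counts that left 22181 tested genes. They comprise 43 large-subunit genes, 31 small-subunit genes, the 3 stalk proteins, 5 paralogs (Rpl7l1, Rpl22l1, Rpl36al, Rps27l and Rps27rt) and Rps19bp1, which the rule admits by name although it encodes a binding partner of Rps19 and not a ribosomal protein. The rule itself uses names and gene types alone.

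PRC1 i2KO comprised 3 samples from mice of genotype K15-CrePR1:Ring1a-/-, Ring1bflox/flox. Their Cre is expressed from a keratin 15 promoter and works only in the presence of RU-486. Control comprised 2 samples from mice of genotype Ring1a-/-, Ring1bflox/flox with no Cre, so Ring1a was absent throughout and the transgene itself also separates the groups. RU-486 (1%) was applied to the skin of both groups daily for 10 days, beginning at postnatal day 50, and the skin was taken at postnatal day 70. The sort kept cells that were EpCAM+, CD34+, Sca1- and α6-integrin high. Whether the samples of a group are separate animals is not stated, and the p-values therefore speak of the spread between samples alone, which may be technical. The libraries are called by the numbers of their titles, PRC1 i2KO 1, 2 and 3 and Control 2 and 3, and values per library are given in that order. The targeted Rnf2, which encodes Ring1b, had 39.9, 33.1 and 36.4 CPM in PRC1 i2KO, against 27.7 and 37.5 CPM in Control (CPM are counts per library total after TMM scaling), with overlapping groups, and 16.8, 12.9 and 11.7 TPM in PRC1 i2KO, against 25.1 and 24.4 TPM in Control (TPM are the authors’ abundances per transcript length), with no overlap. Counts per gene pool deleted and retained exons. Ring1, which encodes Ring1a, had 2.29, 1.58 and 3.67 CPM in PRC1 i2KO, against 1.87 and 5.0 CPM in Control. Total counts per library ran from 25461650 to 43307694 in PRC1 i2KO and were 42916190 and 11626006 in Control, and the smallest count of any member was 51.

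The ribosome is built from a small subunit, which reads the messenger RNA, and a large subunit, which joins the amino acids, and each holds ribosomal RNA and a set of proteins, most of them in a single copy. The messenger RNAs of these proteins are short and abundant, and most begin with a C followed by an unbroken run of pyrimidines, the terminal oligopyrimidine (TOP) tract, through which the kinase mTORC1 and the RNA-binding protein Larp1 control their translation. In the resting hair follicle, stem cells of the bulge are quiescent and are known for low protein synthesis.

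The tract these genes are known for is shown for 9 members that carry it at the annotated start, chosen from both subunits and the stalk, and for Rps27l, which does not. Rps27, Rps27rt and Rps27l stand first because Rps27 had the smallest p and its relatives are compared with it. Each line gives 20 bases before and 20 bases from the RefSeq transcription start (assembly GRCm38.p6), 5′ to 3′, and the capitals mark the run that starts with C at the start site and goes on with C or T.
Rps27: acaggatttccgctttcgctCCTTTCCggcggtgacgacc
Rps27rt: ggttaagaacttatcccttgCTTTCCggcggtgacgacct
Rps27l: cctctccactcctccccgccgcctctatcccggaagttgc
Rpl38: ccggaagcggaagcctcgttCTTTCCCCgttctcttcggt
Rpl15: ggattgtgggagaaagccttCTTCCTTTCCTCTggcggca
Rpl35: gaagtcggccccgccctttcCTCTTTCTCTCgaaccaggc
Rpl35a: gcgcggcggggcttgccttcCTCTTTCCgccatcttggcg
Rplp2: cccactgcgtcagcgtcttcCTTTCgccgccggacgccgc
Rps6: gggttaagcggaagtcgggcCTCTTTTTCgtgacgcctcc
Rps10: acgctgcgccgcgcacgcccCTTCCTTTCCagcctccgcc
In that assembly the windows of the plus strand lie at chr9:66946066-66946105 (Rps27l), chr11:114668560-114668599 (Rpl38), chr16:33056462-33056501 (Rpl35a) and chr7:141447631-141447670 (Rplp2). Those of the minus strand lie at chr3:90213629-90213668 (Rps27), chr9:114982720-114982759 (Rps27rt), chr14:18270967-18271006 (Rpl15), chr2:39005112-39005151 (Rpl35), chr4:86857348-86857387 (Rps6) and chr17:27635225-27635264 (Rps10). Promoters on a single chromosome were left out beforehand, and promoter sequence was then matched by symbol for 63 of the 83 members. Where a gene had several promoters, a match in any of them was counted. A C at the start followed by at least 4 bases that are each C or T was present in 14 of these 63 (22.2%), against 813 of 27025 genes (3.01%) with promoter sequence. The letters CCGGAAG, the core bound by ETS factors, stood on either strand of the 300-base promoter in 25 members (39.7%) and 9.93% of all genes. AAGATGGC, the core bound by Yy1, stood there in 6 members (9.52%) and 3.19% of all genes. The last 3 letters of CCGGAAG are the first 3 of AAGATGGC, but the pair overlapped in 0 members, as did CCGGAAG and the tract at the start. The median log2 fold change of PRC1 i2KO over Control was 0.84 in members with the tract and 0.82 in those without, 0.83 with CCGGAAG and 0.81 without, and 0.90 with AAGATGGC and 0.81 without. Annotated starts can differ from the start used in these cells, so a missing tract describes the annotation only.

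Every ribosomal protein gene had a higher fitted level in PRC1 i2KO than in Control, though none passed the main test on its own. All 83 log2 fold changes were positive, from 0.49 to 1.95 with a median of 0.82, that is 1.76-fold. The median over all 22181 tested genes was 0.00528, and that over the 15041 tested protein-coding genes was 0.108. The middle 50% of members lay between 0.71 and 0.93, and 12 were at least 2-fold higher, among them Rpl38, Rpl41, Rplp0, Rplp1, Rps16, Rps27, Rps27rt, Rps29 and Rps19bp1. The share of all tested genes at least 2-fold higher was not computed, so the count of 12 lacks a background. No member passed edgeR's quasi-likelihood test after Benjamini-Hochberg adjustment over all genes (28 genes, or 0.126%, were called higher and 0, or 0%, lower), and the smallest member value was 0.0502, that of Rps27. At an unadjusted p under 0.05 all 83 members were higher and 0 lower, against 7.43% of all tested genes higher and 3.51% lower. The members' median SE was 0.194, against 0.615 over all tested genes, so this background is not matched to them in precision. DESeq2 called 61 of the 83 higher and 0 lower at an adjusted p under 0.05. Over the 30633 genes with any count it called 2.46% higher and 0.542% lower, counting genes without an adjusted p as not called. By limma-voom 0 members were called (0.018% of genes higher and 0% lower). In 82 of 83 members each PRC1 i2KO library had a higher CPM than both Control libraries, as in 14.6% of all tested genes. The exception was Rpl5. The members of a library share its scaling and its preparation, so their agreement is not that of independent tests, and the cells' ribosome content was not measured.

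**Figure D1:**
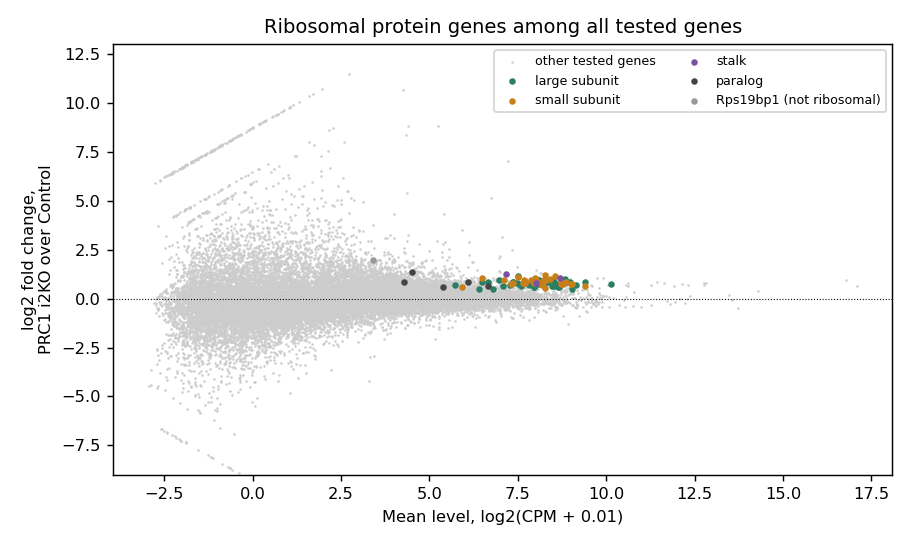
Mean level over the 5 libraries (x axis, log2(CPM + 0.01)) and log2 fold change of PRC1 i2KO over Control (y axis) for each of the 22181 tested genes in grey and the 83 members in colour by class. The members form a narrow band above 0 among the more abundant genes.

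**Figure D2:**
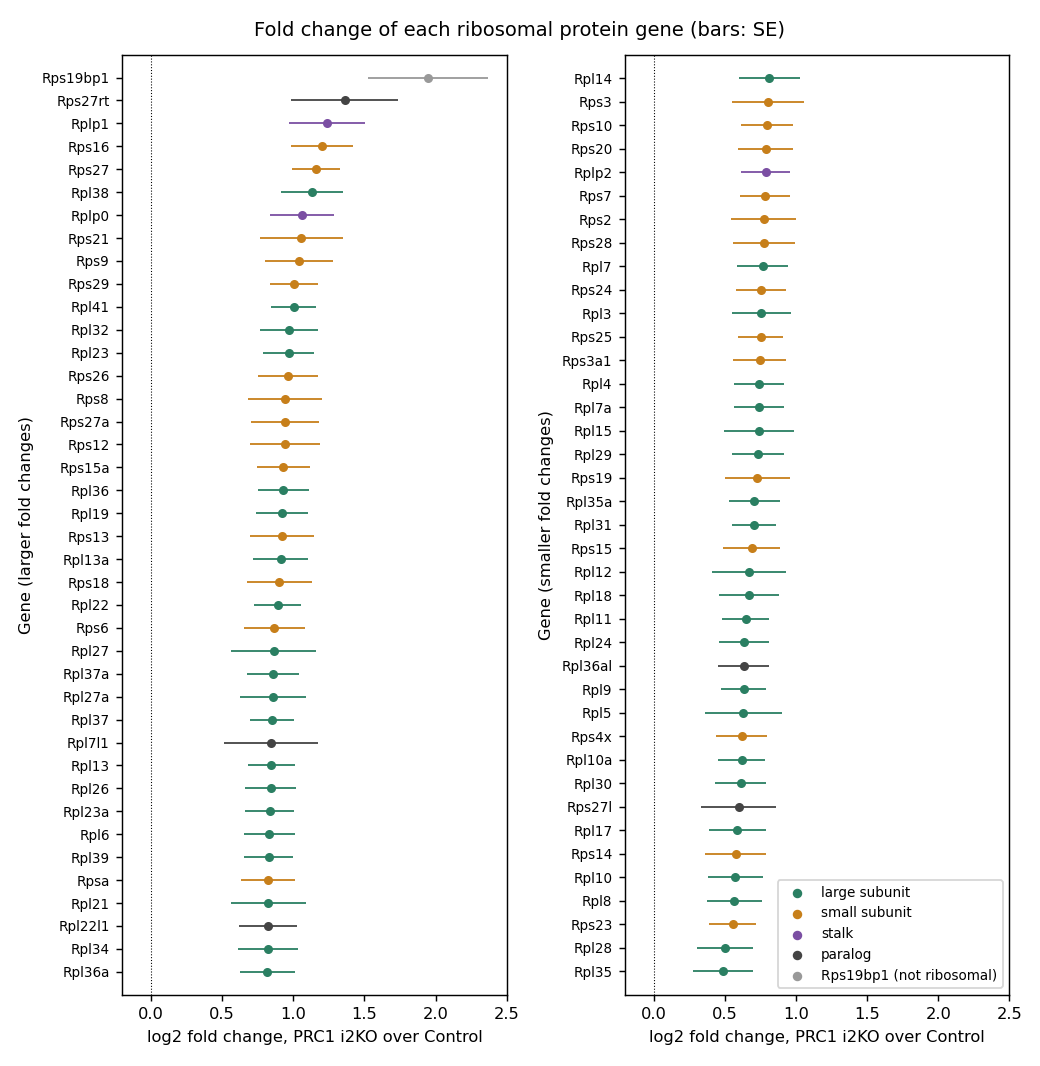
Log2 fold change of PRC1 i2KO over Control (x axis; points, edgeR estimate; bars, standard error) for 79 of the 83 members, in 2 panels from the larger to the smaller fold changes. All 79 points lie right of 0, from 0.49 (Rpl35) to 1.95 (Rps19bp1).

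Bulge markers were abundant in all 5 libraries, and markers of other cells also differed between the groups. The 10 bulge and basal markers summed to 11645 to 14241 CPM in PRC1 i2KO and 12535 to 13193 CPM in Control. Their median log2 fold change was -0.00928, with 1 higher and 3 lower at an unadjusted p under 0.05. Krt14, a basal keratin, had 1322, 1431 and 971 CPM in PRC1 i2KO, against 695 and 832 CPM in Control (log2 fold change 0.70 ± 0.19, edgeR adjusted p = 0.24). Lhx2, a transcription factor of the bulge, had 508, 559 and 409 CPM in PRC1 i2KO, against 659 and 718 CPM in Control (log2 fold change -0.48 ± 0.17, edgeR adjusted p = 0.349). Lgr5, a receptor of hair follicle stem cells, had 322, 315 and 382 CPM in PRC1 i2KO, against 449 and 471 CPM in Control (log2 fold change -0.44 ± 0.16, edgeR adjusted p = 0.359). In all 3 of these the groups did not overlap, with Krt14 higher and the others lower in PRC1 i2KO. Named after their values were seen, Krt15 had 4427, 5076 and 3418 CPM in PRC1 i2KO, against 4269.9 and 4358 CPM in Control, and Cd34, used in the sort, had 298, 292 and 164 CPM in PRC1 i2KO, against 477 and 326 CPM in Control.

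All 5 interfollicular markers had positive log2 fold changes, with a median of 1.48, 2 higher at an unadjusted p under 0.05 and 1 called higher by DESeq2. Krt1, a keratin of the suprabasal epidermis, had 92.2, 296 and 345 CPM in PRC1 i2KO, against 66.4 and 94.4 CPM in Control. Ly6a, which encodes the Sca1 that the sort selected against, had 3.12, 4.78 and 4.93 CPM in PRC1 i2KO, against 1.62 and 0.793 CPM in Control. The groups overlapped in Krt1 and lay apart in Ly6a. In log2(CPM + 0.5), relative to Control, the list's medians were 0.20, 1.73 and 0.64 in PRC1 i2KO, against 0.03 and -0.03 in Control. Their sum, to which Krt10 gave the most, was 373 to 1542 CPM in PRC1 i2KO and 432 to 435 CPM in Control. Of 6 fibroblast markers, 3 were tested, with a median log2 fold change of 2.02, and DESeq2 called 2 of the 3 higher. All 6 summed to 48 to 65.9 CPM in PRC1 i2KO and 21.1 to 23.7 CPM in Control. Pdgfra had 32.5, 25.4 and 16 CPM in PRC1 i2KO, against 3.37 and 2.22 CPM in Control (log2 fold change 3.11 ± 0.45, edgeR adjusted p = 0.0502). Col1a1 had 11.2, 19.7 and 7.88 CPM in PRC1 i2KO, against 3.41 and 2.94 CPM in Control. Col1a2 had 13.3, 20.3 and 20.8 CPM in PRC1 i2KO, against 16.8 and 15.7 CPM in Control, with overlapping groups. The 4 melanocyte markers summed to 82.1 to 126 CPM in PRC1 i2KO and 158 to 204 CPM in Control. Most of that sum was Mitf, with 102, 123 and 75.9 CPM in PRC1 i2KO, against 196 and 153 CPM in Control. The immune and the endothelial or mural markers that were measured (3 each) reached at most 4.94 and 22.7 CPM in sum, and no listed marker in the table was at 0 in every library. The part of other cells in the members' difference was not tested, and in bulk RNA fewer cells of a type and less RNA per cell cannot be told apart.

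Added together, the members took a larger share of the RNA in every PRC1 i2KO library. They made up 2.77, 2.69 and 2.38 in PRC1 i2KO, against 1.72 and 1.89 in Control, in percent of all expected counts. The means were 2.61 ± 0.205% in PRC1 i2KO (SD, n = 3) and 1.8 ± 0.12% in Control (SD, n = 2), a ratio of 1.45. The groups did not overlap, and the two-sided exact permutation test gave p = 0.20, the smallest value that 3 samples against 2 allow. By summed TPM the shares were 4.83, 5.1 and 4.2 in PRC1 i2KO, against 3.6 and 3.04 in Control, in percent. The means were 4.71 ± 0.462% in PRC1 i2KO (SD, n = 3) and 3.32 ± 0.397% in Control (SD, n = 2) (exact p = 0.20). Mitochondrially encoded RNA took 35.9, 26.6 and 38.4 in PRC1 i2KO, against 21.2 and 27.4 in Control, in percent of all counts, and its groups overlapped. Most of it was mitochondrial ribosomal RNA, with 29.7, 21.4 and 32 in PRC1 i2KO, against 16.7 and 22.6 in Control, in percent of all counts. With all mitochondrially encoded features left out of the total, the members held 4.32, 3.66 and 3.86 in PRC1 i2KO, against 2.18 and 2.6 in Control, in percent, a ratio of 1.65. The ratio was thus larger without the mitochondrially encoded features than with them.

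**Figure D3:**
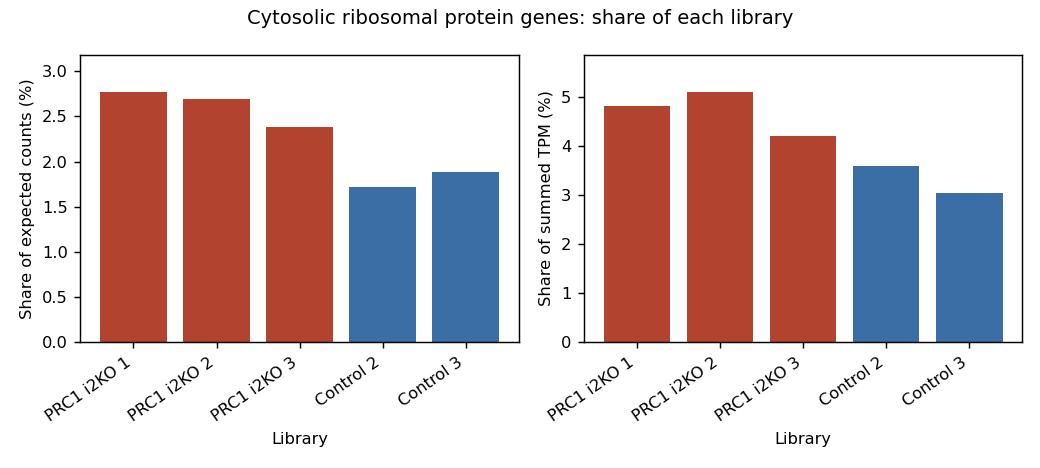
Share of all expected counts (left, %) and of summed TPM (right, %) at the 83 members in each library, with PRC1 i2KO in red and Control in blue. By counts the 3 PRC1 i2KO bars stand between 2.38% and 2.77%, above both Control bars.

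PRC1 i2KO 1 stood farthest from Control. In log2(CPM + 0.5), the median distance of the members to their Control mean was 0.98, 0.71 and 0.69 in PRC1 i2KO, against -0.11 and 0.11 in Control, where the median over all tested genes stayed between -0.0524 and 0.00438. PRC1 i2KO 1 held the highest value of 71 of the 83 members, PRC1 i2KO 2 of 7 and PRC1 i2KO 3 of 5. On the log2(TPM + 1) scale the member medians were 0.54, 0.59 and 0.31 in PRC1 i2KO, against 0.12 and -0.12 in Control. There PRC1 i2KO 2 had the highest value and Control 2 lay above Control 3, whereas Control 3 was the higher one in CPM. The proliferation marker Mki67, chosen after its values were seen, had 173, 38.1 and 404 CPM in PRC1 i2KO, against 13.2 and 34 CPM in Control. Its part in the members' difference was not tested.

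**Figure D4:**
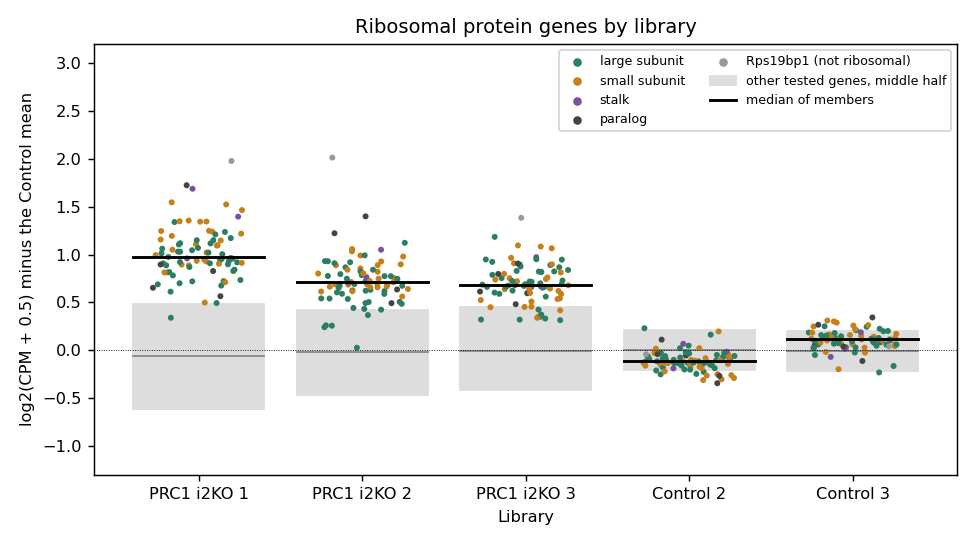
Each member's log2(CPM + 0.5) minus its Control mean (y axis) in each library (x axis), coloured by class, with the median of the members as a black bar and the middle 50% of all other tested genes as a grey box. The member medians are 0.98, 0.71 and 0.69 in PRC1 i2KO 1, 2 and 3.

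Small-subunit genes had fold changes close to those of the large subunit. The 31 small-subunit genes had a median log2 fold of 0.83 (range 0.56 to 1.20), with 24 called higher by DESeq2. Rps27, a zinc-finger protein of the small subunit, had 552, 445 and 460.3 CPM in PRC1 i2KO, against 220.4 and 213 CPM in Control. Control 2 and 3 lay close together and far below the PRC1 i2KO libraries (log2 fold change 1.16 ± 0.17, edgeR adjusted p = 0.0502). Rps29, another small zinc-binding protein of this subunit, had 488, 398 and 398 CPM in PRC1 i2KO, against 216 and 210.5 CPM in Control (log2 fold change 1.01 ± 0.17, edgeR adjusted p = 0.0867). Rps16, whose tail reaches towards the decoding centre, had 497, 329 and 369 CPM in PRC1 i2KO, against 159 and 188 CPM in Control (log2 fold change 1.20 ± 0.22, edgeR adjusted p = 0.109). PRC1 i2KO 1 was the highest of the group in each of these genes, and no Control library reached any PRC1 i2KO library. Rps25 had 689, 597 and 587 CPM in PRC1 i2KO, against 354 and 387 CPM in Control (log2 fold change 0.75 ± 0.16, edgeR adjusted p = 0.15). It is among the members of highest level per length, and its groups lay apart. The smallest difference of the subunit was that of Rps23, a protein of the decoding centre, with 341, 382 and 343 CPM in PRC1 i2KO, against 223 and 261 CPM in Control (log2 fold change 0.56 ± 0.16, edgeR adjusted p = 0.261). Each PRC1 i2KO library still lay above both Control libraries in CPM, though not in TPM.

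The 43 large-subunit genes had a median log2 fold of 0.77 (range 0.49 to 1.13), and DESeq2 called 30 of them higher. Rpl41, the shortest ribosomal protein, had 617, 565 and 527 CPM in PRC1 i2KO, against 275 and 293 CPM in Control (log2 fold change 1.00 ± 0.16, edgeR adjusted p = 0.0659). Rpl37 had 378, 403 and 379.5 CPM in PRC1 i2KO, against 217 and 211 CPM in Control (log2 fold change 0.85 ± 0.15, edgeR adjusted p = 0.109). Unlike most members it was highest in PRC1 i2KO 2. Rpl23 had 509, 437 and 404 CPM in PRC1 i2KO, against 209 and 251 CPM in Control (log2 fold change 0.97 ± 0.18, edgeR adjusted p = 0.113). Rpl38, whose loss in mice disturbs skeletal patterning and the translation of Hox messages, had 268, 230.1 and 204 CPM in PRC1 i2KO, against 88.8 and 125 CPM in Control (log2 fold change 1.13 ± 0.22, edgeR adjusted p = 0.132). Its Control libraries differed from each other, and both lay below the lowest PRC1 i2KO value. At the other end, Rpl35, near the exit of the peptide tunnel, had 86.2, 114 and 85.1 CPM in PRC1 i2KO, against 65.1 and 70.9 CPM in Control (log2 fold change 0.49 ± 0.21, edgeR adjusted p = 0.451). Rpl28 had 143, 125 and 112 CPM in PRC1 i2KO, against 83.5 and 95.8 CPM in Control (log2 fold change 0.50 ± 0.19, edgeR adjusted p = 0.397). In CPM the groups of Rpl35 and Rpl28 did not overlap, and in TPM they did.

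The stalk of the large subunit, which recruits the elongation factors, is formed by Rplp0 as the base and Rplp1 with Rplp2 as its arms. Rplp1 had 257, 165 and 141 CPM in PRC1 i2KO, against 83.3 and 75.7 CPM in Control (log2 fold change 1.24 ± 0.27, edgeR adjusted p = 0.161). Rplp0 had 660.2, 426 and 492 CPM in PRC1 i2KO, against 219.6 and 286 CPM in Control (log2 fold change 1.06 ± 0.22, edgeR adjusted p = 0.15). Rplp2 had 349, 293 and 285 CPM in PRC1 i2KO, against 177 and 181 CPM in Control (log2 fold change 0.79 ± 0.17, edgeR adjusted p = 0.161). In all 3 the groups lay apart in CPM and in TPM, and DESeq2 called all 3. Rpl5 and Rpl11 bind the smallest ribosomal RNA of the large subunit and, when free, the p53 regulator Mdm2. Rpl5 had 188, 103 and 180.2 CPM in PRC1 i2KO, against 92.5 and 111 CPM in Control (log2 fold change 0.63 ± 0.27, edgeR adjusted p = 0.447). Its value in PRC1 i2KO 2 lay between both Control values, which made Rpl5 the single member whose groups overlapped in CPM. Rpl11 had 388, 454 and 452 CPM in PRC1 i2KO, against 259.5 and 292 CPM in Control (log2 fold change 0.65 ± 0.16, edgeR adjusted p = 0.206). Its groups lay apart in CPM and overlapped in TPM.

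A further 5 members were named for their known roles after their values were seen. Rps6, the substrate of the S6 kinases, had 719, 456 and 515 CPM in PRC1 i2KO, against 294 and 324 CPM in Control (log2 fold change 0.87 ± 0.21, edgeR adjusted p = 0.20). Rps19, mutated in human Diamond-Blackfan anaemia, had 215, 195 and 153 CPM in PRC1 i2KO, against 92.7 and 134 CPM in Control (log2 fold change 0.73 ± 0.23, edgeR adjusted p = 0.29). In both the groups lay apart, in CPM and in TPM. Rps27a, made as a fusion with ubiquitin, had 335, 212 and 211 CPM in PRC1 i2KO, against 126 and 137 CPM in Control (log2 fold change 0.94 ± 0.24, edgeR adjusted p = 0.206). Rpsa, also known as a laminin receptor, had 590.0, 450.3 and 483 CPM in PRC1 i2KO, against 253 and 321 CPM in Control (log2 fold change 0.83 ± 0.19, edgeR adjusted p = 0.177). Rpl10, needed for the joining of the subunits, had 575, 427 and 401 CPM in PRC1 i2KO, against 308 and 321 CPM in Control (log2 fold change 0.57 ± 0.19, edgeR adjusted p = 0.323). Rps27a and Rpsa likewise lay apart on both scales, while the groups of Rpl10 overlapped in TPM. Of these 5, DESeq2 called Rps6, Rps27a and Rpsa higher.

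Among the 5 paralogs in the set, which arose as copies of ribosomal protein genes, the differences were of the same order, with a median log2 fold change of 0.82. Rpl22, a large-subunit protein, had 352, 305 and 321 CPM in PRC1 i2KO, against 167 and 184 CPM in Control (log2 fold change 0.89 ± 0.17, edgeR adjusted p = 0.113). Its paralog Rpl22l1 had 86.9, 72.4 and 87.5 CPM in PRC1 i2KO, against 45.2 and 47.8 CPM in Control (log2 fold change 0.82 ± 0.20, edgeR adjusted p = 0.199). In neither gene of the pair did the groups overlap. Per length, Rpl22 stood at 756 ± 59.8 TPM in PRC1 i2KO and 492 ± 58 TPM in Control, above Rpl22l1 with 159 ± 10.6 TPM in PRC1 i2KO and 105 ± 19.9 TPM in Control (SD, n = 3 and 2). Rps27l, a p53-inducible relative of Rps27, had 55.7, 44.1 and 43.7 CPM in PRC1 i2KO, against 25.8 and 37.6 CPM in Control (log2 fold change 0.60 ± 0.26, edgeR adjusted p = 0.453). Rps27rt, a retrogene copy of Rps27, had 39.2, 31.2 and 20.4 CPM in PRC1 i2KO, against 8.97 and 14.8 CPM in Control (log2 fold change 1.36 ± 0.38, edgeR adjusted p = 0.24). Its value is uncertain, since 91.1% of the distinct 50-base words of its longest transcript also occur in other genes. No other gene shares more of these words than Rps27. For Rps27 itself the percentage was 63.1%. Rpl36al had 119, 116 and 116 CPM in PRC1 i2KO, against 72.6 and 78.2 CPM in Control (log2 fold change 0.63 ± 0.18, edgeR adjusted p = 0.24). Rpl7l1 had 19.7, 31.4 and 20.1 CPM in PRC1 i2KO, against 14.3 and 12.1 CPM in Control (log2 fold change 0.85 ± 0.33, edgeR adjusted p = 0.398). Both lay above Control in each PRC1 i2KO library in CPM, and both overlapped in TPM. The wider list of paralogs holds 4 more genes that the table types as pseudogenes, so that 9 were tested, with a median of 0.63 and 7 positive. Of these 4, Rpl37rt had a log2 fold change of 0.99, Rps3a2 of 0.54, Rps3a3 of -0.04 and Rps4l of -0.96.

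Rps19bp1, whose human counterpart activates the deacetylase SIRT1, had the largest fold change in the set and is not a structural protein of the ribosome. It had 16.9, 17.3 and 11 CPM in PRC1 i2KO, against 3.8 and 4.05 CPM in Control (log2 fold change 1.95 ± 0.42, edgeR adjusted p = 0.157), 3.85-fold. Per length it had 18.7, 24.9 and 13.2 TPM in PRC1 i2KO, against 7.49 and 5.35 TPM in Control. It is also the least abundant member, with 51 counts in Control 3, and DESeq2 called it higher (adjusted p = 8.07e-05). Leaving it and the paralogs out changed the members' share of counts little, to 2.58% in PRC1 i2KO and 1.78% in Control.

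The level per length differed widely between members although the ribosome holds most of their products in a single copy. Apart from the paralogs and Rps19bp1, which had 6.42 TPM in Control, the mean TPM in Control ran from 34.1 (Rpl12) to 1272 (Rps27). The median over all 83 was 464 TPM in PRC1 i2KO and 318 TPM in Control. Members with a mean above 1000 TPM numbered 12 in PRC1 i2KO and 3 in Control. Rps27 had 2072, 2302 and 2019 TPM in PRC1 i2KO, against 1512 and 1032 TPM in Control. Rps29 had 1557, 1721 and 1450.2 TPM in PRC1 i2KO, against 1227 and 851 TPM in Control. In both of these the lowest PRC1 i2KO library lay above the higher Control library, which was Control 2. Under 100 TPM in Control stood 9 members: Rpl5, Rpl12, Rpl35, Rps3, Rps14, Rpl7l1, Rps27l, Rps27rt and Rps19bp1. Rpl12 had 50.9, 38.3 and 41.7 TPM in PRC1 i2KO, against 37.8 and 30.4 TPM in Control. In TPM all 83 log2 fold changes (scale log2(TPM + 1)) were again positive, with a median of 0.49 where that of all tested genes was -0.19. Relative to all genes the members' difference on this scale was therefore 0.68. It depends on the pseudocount, since with 0.1 the medians were 0.49 in the members and -0.33 over all genes. By limma no member passed after adjustment (0.00902% of genes higher, 0.00451% lower), and 25 members were higher and 0 lower at an unadjusted p under 0.05 (2.61% and 8.03% of genes). In 66 of 83 members every PRC1 i2KO library lay above both Control libraries in TPM, against 7.01% of genes. The 17 members that overlapped in TPM include Rpl5, Rpl8, Rpl10, Rpl11, Rpl28, Rpl35, Rps2, Rps14, Rps23, Rpl36al and Rpl7l1.

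Ribosomal protein genes have many near-identical processed copies in the genome, so reads can be split between a gene and its copies. Of the 83 members, 81 shared at least 1 distinct 50-base word of their longest transcript with another annotated gene, and in 30 more than 50% of the words were shared. The median log2 fold change was 0.83 in these 30, 0.81 in the other 53 and 0.85 in the 9 with at most 10% shared. Features named as pseudogenes of members (-ps) took 3.77 to 3.98 counts per 100 member counts in PRC1 i2KO and 4.04 to 4.51 in Control. With them added, the share of counts was 2.71 ± 0.211% in PRC1 i2KO (SD, n = 3) and 1.88 ± 0.131% in Control (SD, n = 2).

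Fold changes over all protein-coding genes differed with transcript length, and the members are short. Their longest annotated transcripts had a median of 914 bases, against 3204 bases for the other tested protein-coding genes. Among other protein-coding genes of up to 1000 bases (720 genes) the median log2 fold change was 0.40, and 17.8% were higher at an unadjusted p under 0.05. The 48 members of that length had a median of 0.84. Between 1000 and 2000 bases the median was 0.31 in 2775 other genes and 0.77 in 28 members. From 2000 to 4000 bases it was 0.13 in 6099 other genes and 0.73 in 6 members, and above 4000 bases -0.00583 in 5320 other genes. The part of transcript length in the members' difference was not tested.

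The other lists of the translation machinery had lower median log2 fold changes than the members, while Rack1 and Fau, ribosomal proteins whose names fall outside the rule, had values like theirs. No gene of these lists passed edgeR's test after adjustment, and the counts called by DESeq2 are given for each list. The counts at an unadjusted p are to be read against 7.43% of all tested genes higher and 3.51% lower, and those of ribosome biogenesis and of the mTORC1 and Myc network lie near that background. Rack1, the scaffold protein of the small subunit, had 291, 268 and 294 CPM in PRC1 i2KO, against 143 and 173 CPM in Control (log2 fold change 0.85 ± 0.17, edgeR adjusted p = 0.142). Fau, ubiquitin-like with a small-subunit protein, had 167, 147 and 125 CPM in PRC1 i2KO, against 64.9 and 82 CPM in Control (log2 fold change 0.99 ± 0.21, edgeR adjusted p = 0.15). The 16 elongation factors and other messages with TOP tracts had a median of 0.57 on the log2 fold scale, with 16 of 16 positive and 12 higher and 0 lower at an unadjusted p under 0.05 (DESeq2, 1 higher). Eef1a1, which delivers transfer RNA to the ribosome, had 1999.8, 1769.7 and 1684 CPM in PRC1 i2KO, against 1002 and 1325 CPM in Control (log2 fold change 0.64 ± 0.17, edgeR adjusted p = 0.211). Eef2, the translocase, had 1066, 794 and 841 CPM in PRC1 i2KO, against 516 and 652 CPM in Control (log2 fold change 0.62 ± 0.19, edgeR adjusted p = 0.265). Eif3h, a subunit of an initiation complex, had 115, 124 and 89.4 CPM in PRC1 i2KO, against 57.1 and 72.8 CPM in Control. In these 3 genes each PRC1 i2KO library lay above both Control libraries.

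The 35 tested initiation factors and their binding proteins had a median of 0.44 on the log2 fold scale, with 32 of 35 positive and 11 higher and 0 lower at an unadjusted p under 0.05 (DESeq2, 3 higher). Eif4e3, a cap-binding relative of Eif4e, had 27.9, 14.2 and 22.4 CPM in PRC1 i2KO, against 4.97 and 3.73 CPM in Control (log2 fold change 2.29 ± 0.42, edgeR adjusted p = 0.113). Eif3l had 92.8, 65.5 and 66.2 CPM in PRC1 i2KO, against 36.8 and 36.6 CPM in Control (log2 fold change 1.03 ± 0.24, edgeR adjusted p = 0.177). Eif5a had 152, 119 and 114 CPM in PRC1 i2KO, against 79.4 and 75.2 CPM in Control (log2 fold change 0.73 ± 0.20, edgeR adjusted p = 0.24). In these genes the groups did not overlap.

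The 78 proteins of the mitochondrial ribosome had a median of 0.34 on the log2 fold scale, with 62 of 78 positive and 9 higher and 1 lower at an unadjusted p under 0.05 (DESeq2, 1 higher). Mrpl52 had 45.8, 36.5 and 36.4 CPM in PRC1 i2KO, against 17.5 and 22.6 CPM in Control (log2 fold change 0.98 ± 0.26, edgeR adjusted p = 0.228). Mrps21 had a log2 fold change of 0.90 and Mrpl35 one of -0.78. The 58 genes of ribosome biogenesis had a median of 0.27 on the log2 fold scale, with 46 of 58 positive and 5 higher and 0 lower at an unadjusted p under 0.05 (DESeq2, 1 higher). Npm1, a nucleolar chaperone, had 803, 509 and 709.8 CPM in PRC1 i2KO, against 417 and 427 CPM in Control (log2 fold change 0.67 ± 0.20, edgeR adjusted p = 0.274), while Mrto4 and Pes1 had log2 fold changes of 1.04 and 0.69. The 14 genes of RNA polymerase I and its factors had a median of 0.30 on the log2 fold scale, with 11 of 14 positive and 2 higher and 0 lower at an unadjusted p under 0.05 (DESeq2, 0), with Znrd1, Taf1a and Taf1c at 0.90, 0.69 and 0.98. The 23 genes of the mTORC1 and Myc network had a median of 0.22 on the log2 fold scale, with 18 of 23 positive and 2 higher and 0 lower at an unadjusted p under 0.05 (DESeq2, 1 higher). Mycn had 10.4, 1.78 and 7.72 CPM in PRC1 i2KO, against 0.67 and 1.11 CPM in Control (log2 fold change 2.92 ± 0.88, edgeR adjusted p = 0.27), and Mycl and Ddit4 had log2 fold changes of 1.95 and 1.57. The groups of Mycn lay apart, with PRC1 i2KO 2 nearest to Control. The 8 host genes of small nucleolar RNAs, which also begin with TOP tracts, had a median of 0.27 on the log2 fold scale, with 8 of 8 positive and 0 higher and 0 lower at an unadjusted p under 0.05 (DESeq2, 0). In Gas5 the groups overlapped, with 416, 294 and 468 CPM in PRC1 i2KO, against 291 and 352 CPM in Control. Snhg12 and Snhg5 had log2 fold changes of 0.67 and 0.51. The nuclear-encoded subunits of oxidative phosphorylation, a list added after the data were seen, had a median of 0.62 on the log2 fold scale, with 69 of 72 positive and 34 higher and 0 lower at an unadjusted p under 0.05 (DESeq2, 10 higher). No list was tested against the ribosomal protein genes.

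**Figure D5:**
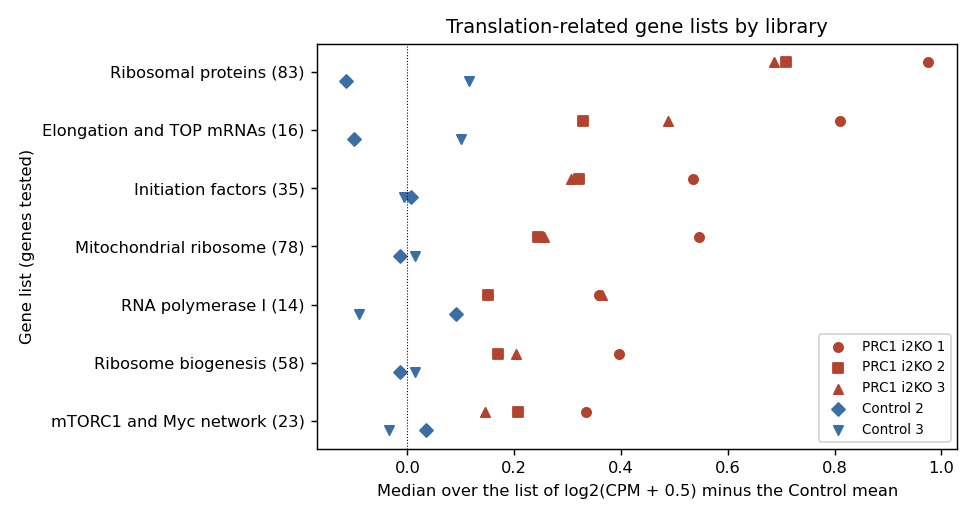
Median over each gene list of log2(CPM + 0.5) minus the Control mean (x axis) for the members, elongation factors and TOP messages, initiation factors, the mitochondrial ribosome, RNA polymerase I, ribosome biogenesis and the mTORC1 and Myc network (y axis, genes tested in brackets), with PRC1 i2KO libraries in red and Control libraries in blue. Of these 7, PRC1 i2KO 1 has the highest median in all but RNA polymerase I, and the ribosomal protein genes lie farthest right.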

How the data were processed

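Polyadenylated RNA of 5 samples was sequenced on an Illumina HiSeq instrument from 50 ng of total RNA with the Universal Plus mRNA-Seq kit, per the labels' protocols. Per the submitters' processing notes, the tools were RSEM 1.3.3, STAR 2.7.9a and DESeq2 1.38.2 and the build was mm39; their roles are not given. The authors deposited expected counts, of which 60.41% were not whole, and TPM values scaled for transcript length; strand use in counting is not stated. Columns were matched to samples by title.

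Expected counts were rounded and tested by quasi-likelihood in edgeR 4.0.16 (R 4.3.3) after filterByExpr and TMM scaling, with group alone in the model, adjusted by Benjamini-Hochberg over 22181 genes at a threshold of 0.05. Fold changes are PRC1 i2KO over Control, with the SE taken from the estimate and its F value. DESeq2 1.42.0, limma-voom and limma 3.58.1 on log2(TPM + 1) were alternatives. Shares of a library were compared by two-sided exact permutation over the 5 samples.

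Members were found by name; genes named with values are those of highest Control TPM, smallest p, largest and smallest fold change, the paralogs, the stalk, Rpl5 and Rpl11, and in other lists the 3 of smallest p; others are said to be named after their values were seen or are markers given to describe a sum. Members and lists were chosen with earlier results of these data known. Transcript lengths and shared 50-base words came from GENCODE M21 transcripts by gene ID (99.7% of the tested protein-coding genes matched), and promoters from RefSeq on GRCm38.p6 by symbol, a build other than mm39, so no coordinate was taken from the files. Some genes that the rules would name are not reported here.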

Additional observations from a re-analysis of the deposited data

How the results depend on the processing

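In each of the 17 alternatives all 83 members kept a positive log2 fold change and 0 members were called lower. The number called higher, 0 by edgeR, was 1 without mitochondrially encoded genes, 3 among protein-coding genes alone, 18 with no filter on low counts and 61 by DESeq2. With a replicate block by title number it was 9 and by description number 0. By title PRC1 i2KO 1 stands alone in its block, and by description PRC1 i2KO 3 does. A library alone in its block does not inform the group difference in that model. Both numberings give 2 pairs, whose deviations correlated at 0.08 and 0.05 by title and at -0.03 and -0.08 by description. With 2 Control libraries, their deviations from the Control mean mirror each other. These values therefore cannot decide whether samples of the same number were paired. Over all 22181 genes of the main test the calls were 28 higher and 0 lower. They became 34 and 0 of 22016 genes without mitochondrially encoded genes, and 54 and 6 of 14992 protein-coding genes. Over 30633 genes they were 140 and 12 with no filter and 754 and 166 by DESeq2. Over 22181 genes the block by title number gave 140 and 25, and that by description number 10 and 0. The median log2 fold change of the members, 0.82, was 0.54 with library totals only, where that of all genes was -0.26, 0.49 on the log2(TPM + 1) scale, 0.49 with a pseudocount of 0.1 (all genes -0.33) and 0.49 with no filter on low TPM, added after seeing the data. The cause of these shifts was not tested. Leaving out each library in turn gave medians from 0.68 (without Control 2) to 0.93 (without Control 3). Without each PRC1 i2KO library in turn, 0 members were called, and 78 to 79 were higher at an unadjusted p under 0.05. With library totals only, 59 were higher at that p. The share of all genes at an unadjusted p was not computed in these settings, so these counts lack a background. Where a Control is left out, the remaining sample is assumed to vary like the PRC1 i2KO libraries, so no count of members called higher is given there. Over all genes 8 to 39 were called higher and 0 to 4 lower without each PRC1 i2KO library in turn. With each library of either group left out in turn, the difference in share was 0.725 to 0.926 percentage points of counts and 1.11 to 1.67 of TPM. Of 425 repeats over the 25 members the naming rule gave, 385 kept their side of the threshold, 40 came to pass it and 0 changed sign. Control 3 had the fewest counts, so low members are least precise there.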
